A study of Mus musculus with 6 samples.

Results

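Pigment genes of the melanocyte lineage were followed in B16F10 mouse melanoma cells depleted of OSGEP. They were Mitf, Tyr, Tyrp1, Dct, Pmel, Mlana, Slc45a2, Oca2, Gpr143 and Trpm1, taken by symbol from the table of gene counts, so that 10 of its 55487 genes were examined. All 10 were among the 12669 genes expressed highly enough to be tested. OSGEP carries the catalytic activity of KEOPS, which makes the t6A modification of tRNAs that read ANN codons, and the experiment asked how the transcriptome of melanoma cells changes when it is lost. B16F10 cells carrying a scramble shRNA (shCtr, genotype given as WT) were compared with cells carrying shRNA number 2 against OSGEP (shOSGEP, genotype given as KD OSGEP). Both groups had 3 libraries of polyA RNA from lentiviral infections made separately, numbered 1 to 3 as replicates. A single hairpin against OSGEP was sequenced, so an effect of the hairpin and an effect of OSGEP loss cannot be told apart. The libraries are bulk RNA, in which fewer pigmented cells and less RNA per cell cannot be told apart.

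Melanocytes make melanin inside melanosomes, organelles of the lysosome family. MITF, a transcription factor of the MiT/TFE family, binds the M-box and related E-box motifs in the promoters of many pigment genes and is the best known regulator of this programme. Its targets encode the enzymes that oxidise tyrosine, the proteins of the fibrils on which melanin is laid down, and the transporters and channels that set the pH of the organelle. B16F10 is a line from a pigmented mouse melanoma.

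The promoters of these genes are described first, and no link between their motifs and the RNA levels was tested. RefSeq windows (GRCm38.p6) of 300 bases, from 250 bases before to 50 after a start site, were found for 6 of the 10 genes, in 9 windows. The letters TCATGTG, the core of the M-box, were searched on both strands and occurred in 4 of the 9 windows, against 3.772% of all 32851 windows. The first base lay at -22 from the start site in Tyr, -47 in Tyrp1, -151 and -232 in Dct and -142 in Trpm1. The shorter motif CATGTG, which overlaps each TCATGTG, occurred in 6 of the 9 windows, adding Oca2 and a downstream Trpm1 start, against 14.15% of all windows. The palindrome CACGTG occurred in 1 of the 9 windows (the downstream Trpm1 start) against 7.15% of all. TGACGTCA, the response element of cAMP-regulated CREB factors, occurred in 1 of the 9 windows, at the most downstream of the 3 Mitf starts, against 1.79% of all. A match in these letters is a description and was not tested for binding. For the 5 windows that hold TCATGTG or TGACGTCA, the 250 bases before the start site are given 5′ to 3′, with the matched motifs in capitals. They lie at chr7:87493513-87493762 on the minus strand (Tyr), chr4:80833963-80834212 on the plus strand (Tyrp1), chr14:118052247-118052496 on the minus strand (Dct), chr7:64153585-64153834 on the plus strand (Trpm1) and chr6:97991533-97991782 on the plus strand (Mitf, downstream start).
Tyr: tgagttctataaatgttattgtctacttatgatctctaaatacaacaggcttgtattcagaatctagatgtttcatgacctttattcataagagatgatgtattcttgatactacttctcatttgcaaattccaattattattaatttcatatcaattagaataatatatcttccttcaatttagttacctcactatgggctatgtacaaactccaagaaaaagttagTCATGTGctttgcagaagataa
Tyrp1: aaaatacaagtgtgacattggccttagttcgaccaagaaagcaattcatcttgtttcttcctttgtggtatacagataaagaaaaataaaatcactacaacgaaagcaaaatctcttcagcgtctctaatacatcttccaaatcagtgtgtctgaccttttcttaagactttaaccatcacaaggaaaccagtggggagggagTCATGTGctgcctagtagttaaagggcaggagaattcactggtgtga
Dct: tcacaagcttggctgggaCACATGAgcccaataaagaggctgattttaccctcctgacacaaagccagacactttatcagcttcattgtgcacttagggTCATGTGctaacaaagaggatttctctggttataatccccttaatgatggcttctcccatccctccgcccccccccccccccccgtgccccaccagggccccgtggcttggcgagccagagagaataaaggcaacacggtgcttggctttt
Trpm1: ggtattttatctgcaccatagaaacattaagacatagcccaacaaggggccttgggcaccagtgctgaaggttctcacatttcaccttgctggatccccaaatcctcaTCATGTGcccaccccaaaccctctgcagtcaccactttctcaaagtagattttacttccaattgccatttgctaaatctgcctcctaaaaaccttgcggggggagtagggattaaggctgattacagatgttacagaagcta
Mitf: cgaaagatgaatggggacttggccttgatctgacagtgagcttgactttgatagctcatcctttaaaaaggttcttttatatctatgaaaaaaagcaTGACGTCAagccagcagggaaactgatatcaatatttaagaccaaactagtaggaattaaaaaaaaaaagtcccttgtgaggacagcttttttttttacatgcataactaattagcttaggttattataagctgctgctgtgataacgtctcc

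Depth ranged from 18915587 to 29487384 counts per library. shCtr replicate 2 stood apart in its composition, with a TMM scaling factor of 0.690 against 1.04 to 1.14 in the other 5 libraries, and in both replicate 2 libraries the deviation of a gene followed its GC content and transcript length. Osgep itself was measured at 20.6, 58.6 and 21.8 CPM (counts relative to the TMM-scaled library total) in shCtr replicates 1, 2 and 3, and at 4.28, 0.542 and 5.52 CPM in shOSGEP replicates 1, 2 and 3. The groups did not overlap, and the log2 ratio of shOSGEP to shCtr was -2.24 in replicate 1, -6.54 in replicate 2 and -1.97 in replicate 3. All 8 melanocyte markers used to check the cell type, 6 of which are among the 10 genes, were detected, summing to between 17196 and 29678 CPM in shCtr and between 3651 and 18218 CPM in shOSGEP. Keratinocyte markers stayed at or below 3 counts in every library (6 of 6 genes, 2 of them at 0), as did endothelial markers other than Pecam1 (4 of 5) and fibroblast markers other than Pdgfra (5 of 6). The immune markers Ptprc, Cd3e, Itgam and Adgre1 were at 0 in every library, while Cd68 and Cd79a brought the immune sum to between 4.38 and 10.2 CPM in shCtr and between 0.581 and 4.58 CPM in shOSGEP.

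The pigment genes lay lower in shOSGEP than in shCtr on average, but the difference came from replicate 2. All 10 Log2FC (shOSGEP minus shCtr) were below 0, with a median of -0.94 against -0.03 over all tested genes. The size of that median depended on the fit, and it was -0.19 in limma-voom with quality weights. None of the 10 had an unadjusted p under 0.05 or passed an adjusted p under 0.05 in edgeR (0% of all genes did). None passed the threshold of the study, an unadjusted p under 0.05 together with a Log2FC above 0.5 or below -0.5, which 0.426% of all genes passed in the lower direction. Every adjusted p was 1.00, and the exact permutation test of log2 CPM, two-sided, gave p values from 0.1 for Dct to 0.9 for Mitf, where 0.1 is the smallest that 3 libraries against 3 allow. In replicates 1 and 3 the medians of the 10 genes were nearly equal between shCtr and shOSGEP, with log2 ratios of -0.03 and -0.02. Single genes lay between -0.26 and 0.40 in replicate 1 and between -0.38 and 0.60 in replicate 3. The median was -3.42 in replicate 2. The 10 genes together took between 1.795% and 2.145% of all counts in the shCtr libraries, 2.135% and 1.629% in shOSGEP replicates 1 and 3, and 0.382% in shOSGEP replicate 2.

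**Figure D1:**
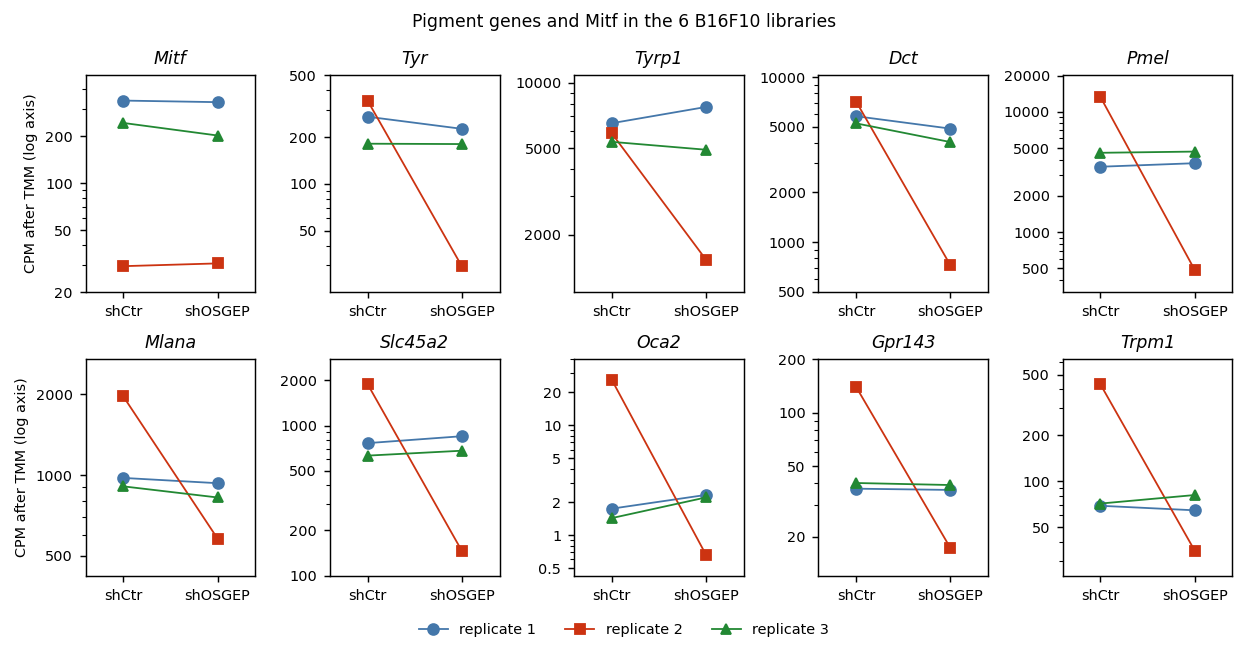
Each panel shows CPM after TMM scaling (log axis) of 1 gene in shCtr and shOSGEP, with a line joining the libraries of the same replicate number. In replicates 1 and 3 no gene differs by a larger fold than Oca2 in replicate 3 (1.43 CPM in shCtr, 2.21 CPM in shOSGEP). In contrast, 9 of the 10 have their lowest value in shOSGEP replicate 2, and Mitf is low in both replicate 2 libraries (29.3 and 30.6 CPM).

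Mitf (ENSMUSG00000035158, chromosome 6, 97807052 to 98021349, plus strand, GRCm38), the transcriptional regulator of the set, was measured at 339, 29.3 and 244 CPM in shCtr replicates 1, 2 and 3, against 331, 30.6 and 202 CPM in shOSGEP replicates 1, 2 and 3. Both replicate 2 libraries were far below the other 4, the groups overlapped, and the mean was 204 ± 158 CPM (SD, n = 3) in shCtr and 188 ± 151 CPM (SD, n = 3) in shOSGEP. The Log2FC was -0.12 (SE 0.968, exact permutation p = 0.9). Within the pairs the log2 ratios were -0.03, 0.06 and -0.27. The counts are per gene, so the isoforms that start from different Mitf promoters were not resolved.

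The enzymes of melanin synthesis came next. Tyr (ENSMUSG00000004651, chromosome 7, 87424771 to 87493512, minus strand), the tyrosinase that catalyses the rate-limiting step, was measured at 270, 343 and 181.2 CPM in shCtr, against 226, 29.6 and 180.3 CPM in shOSGEP, in order of replicate number. shOSGEP replicate 2 lay far below all other libraries, and shOSGEP replicate 1 lay within the range of the shCtr values, so the groups overlapped. The Log2FC was -0.87 (SE 0.690, exact permutation p = 0.2), and in replicate 2 Tyr was 11.6-fold lower in shOSGEP than in shCtr.

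Tyrp1 (ENSMUSG00000005994, chromosome 4, 80834123 to 80851719, plus strand) encodes a tyrosinase-related protein that stabilises tyrosinase and acts late in eumelanin synthesis. It was measured at 6511, 5845 and 5343 CPM in shCtr, against 7735, 1531 and 4915 CPM in shOSGEP. The highest value of all was in shOSGEP replicate 1 and the lowest in shOSGEP replicate 2, so the shOSGEP values spanned the whole shCtr range. The Log2FC was -0.32 (SE 0.656, exact permutation p = 0.6), and the ratio in replicate 2 was 3.82-fold lower in shOSGEP.

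Dct (ENSMUSG00000022129, chromosome 14, 118012790 to 118052244, minus strand) encodes dopachrome tautomerase, which converts dopachrome to DHICA. It was measured at 5797, 7120 and 5247 CPM in shCtr, against 4875, 723 and 4041 CPM in shOSGEP. Every shOSGEP library lay below every shCtr library, which made Dct the only gene of the 10 whose groups did not overlap, against 6.36% of all tested genes in either direction. That separation depended on the TMM scaling of shCtr replicate 2. Before scaling, Dct held 144825 of 29487384 counts in shCtr replicate 2. This is a smaller share than the 104790 of 18915587 counts in shOSGEP replicate 1, so the unscaled groups overlapped. The Log2FC was -0.91 (SE 0.721, exact permutation p = 0.1), with log2 ratios of -0.25, -3.30 and -0.38 within the pairs. Without both replicate 2 libraries the Log2FC of Dct was -0.31.

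Among the melanosome proteins, Pmel (ENSMUSG00000025359, chromosome 10, 128704195 to 128720238, plus strand) encodes the protein that forms the amyloid fibrils on which melanin is deposited. It was measured at 3493, 13300 and 4561 CPM in shCtr, against 3737, 485 and 4669 CPM in shOSGEP. shCtr replicate 2 was 3.33-fold above the other shCtr libraries and shOSGEP replicate 2 was 8.61-fold below the other shOSGEP libraries, while the remaining 4 libraries differed by at most 1.34-fold. The Log2FC was -1.26 (SE 0.896, exact permutation p = 0.5), and the log2 ratios within the pairs were 0.10, -4.78 and 0.03. The first 837 bases of Pmel overlap the opposite-strand gene Cdk2, which held 9780 counts in shCtr replicate 2 and 1827 in shOSGEP replicate 2, and reads from the overlap cannot be told apart, since no source says that the kit kept strand.

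Mlana (ENSMUSG00000024806, chromosome 19, 29697824 to 29708634, plus strand) encodes the MART-1 antigen, a small membrane protein of early melanosomes that binds PMEL. It was measured at 975, 1963 and 907 CPM in shCtr, against 932, 580 and 825 CPM in shOSGEP. The shOSGEP value of replicate 1 lay between the shCtr values of replicates 1 and 3, so the groups overlapped. The Log2FC was -0.72 (SE 0.495, exact permutation p = 0.2), and the ratio in replicate 2 was 3.38-fold lower in shOSGEP, the smallest of the 9 genes that were lower there.

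The transporters, the receptor and the channel of the set had the same contrast in replicate 2. Slc45a2 (ENSMUSG00000022243, chromosome 15, 11000721 to 11029233, plus strand), a melanosomal sugar and proton transporter, was measured at 764, 1894 and 631 CPM in shCtr, against 850, 146 and 680 CPM in shOSGEP. In replicates 1 and 3 shOSGEP was slightly higher than shCtr, with log2 ratios of 0.15 and 0.11, and in replicate 2 it was 12.9-fold lower. The Log2FC was -0.97 (SE 0.726, exact permutation p = 0.5).

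Oca2 (ENSMUSG00000030450, chromosome 7, 56239760 to 56536518, plus strand), whose product is needed for the chloride conductance that raises melanosomal pH, was the lowest of the 10 in CPM per kb of transcript in every library except shCtr replicate 2, where Mitf was lower. It was measured at 1.74, 26.0 and 1.43 CPM in shCtr, against 2.33, 0.659 and 2.21 CPM in shOSGEP, from 41, 529 and 31 counts and from 50, 17 and 52 counts. shCtr replicate 2 was 15.7-fold above the other shCtr libraries, and outside replicate 2 both shOSGEP values were above both shCtr values. The Log2FC was -2.49 (SE 1.17, exact permutation p = 0.6), and it turned to 0.52 without both replicate 2 libraries.

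Gpr143 (ENSMUSG00000025333, chromosome X, 152781921 to 152808646, plus strand), the receptor of ocular albinism that controls melanosome size, was measured at 37.3, 140 and 40.2 CPM in shCtr, against 36.7, 17.3 and 39.1 CPM in shOSGEP. The 4 libraries of replicates 1 and 3 differed by at most 1.09-fold, the narrowest span of the 10 genes, while the replicate 2 libraries lay 8.05-fold apart on either side of them. The Log2FC was -1.22 (SE 0.635, exact permutation p = 0.2).

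Trpm1 (ENSMUSG00000030523, chromosome 7, 64153835 to 64269775, plus strand), a cation channel gene of melanocytes whose intron hosts the miRNA gene Mir211, was measured at 68.9, 432 and 71.2 CPM in shCtr, against 64.3, 35.0 and 81.0 CPM in shOSGEP. Again only the replicate 2 libraries left the range of the others, the shCtr one upwards and the shOSGEP one downwards. The Log2FC was -1.66 (SE 0.779, exact permutation p = 0.4). The call depended on the fit. Trpm1 passed the threshold of the study in DESeq2, where it was 1 of the 10 genes against 0.947% of all genes, and with offsets for GC content and length, where Tyr and Trpm1 passed against 1.89% of all genes. These offsets moved the Log2FC of Tyr from -0.87 to -3.45. The GC content of Tyr, 35.2%, lay below the 10th percentile of tested genes (41.9%), and its fitted trend in shCtr replicate 2 was -2.99 on the log2 scale. The Tyr and Trpm1 calls with offsets were lost when the replicate number was added as a block, a fit in which none of the 10 passed against 2.90% of all genes. DESeq2 gave no p for Oca2, so it could call only 9 of the 10. Oca2 and Trpm1 passed when genes of low count were kept, against 0.774% of all genes. Oca2, Gpr143 and Trpm1 passed without shCtr replicate 1 (1.45% of all genes), Oca2 and Trpm1 without shCtr replicate 3 (0.447%) or without both replicate 1 libraries (0.448%), and Oca2 without both replicate 3 libraries (0.420%). None of the 10 passed without both replicate 2 libraries, where 0.249% of all genes did, nor without shCtr replicate 2 or any single shOSGEP library. No count was assigned to Mir211, which a polyA library does not capture as a mature miRNA.

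**Figure D2:**
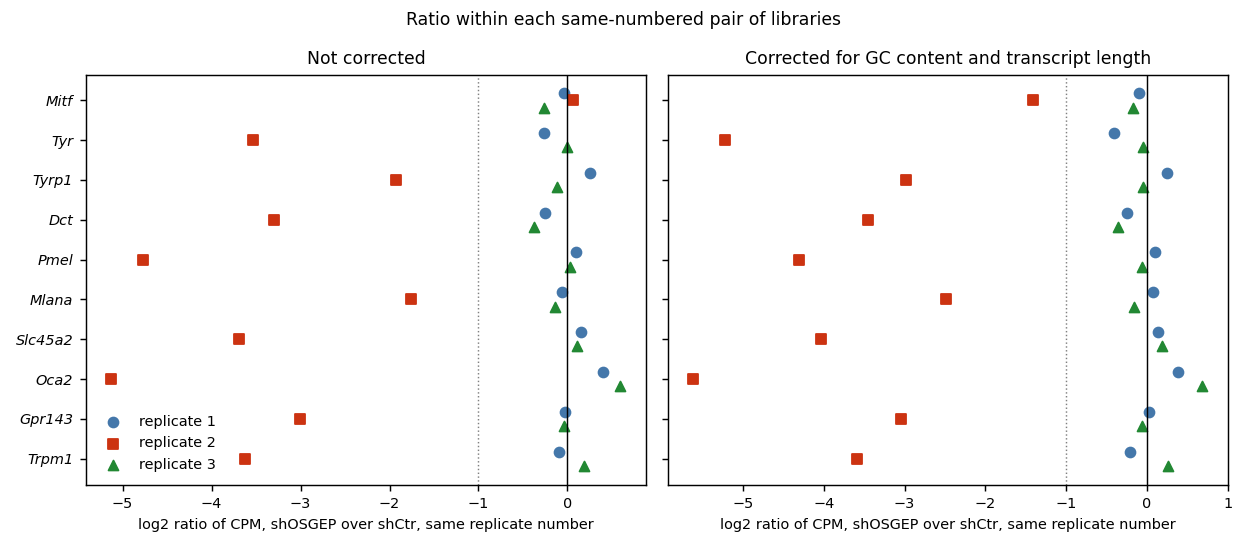
The log2 ratio of CPM of shOSGEP over shCtr is plotted for each gene and each same-numbered pair of libraries, as measured (left) and after correction for GC content and transcript length (right), with a dotted line at -1. In replicates 1 and 3 all points lie between -0.41 and 0.69 in both panels, and in replicate 2 the points reach from 0.06 to -5.13 on the left and from -1.41 to -5.62 on the right.

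Counted over the pairs, 6 of the 10 genes were lower in shOSGEP in replicate 1, 9 in replicate 2 and 6 in replicate 3. The median log2 ratios of all tested genes in these pairs were -0.03, 0.11 and -0.01, which is near an even split between lower and higher. Tyr, Dct, Mlana and Gpr143 were lower in all 3 pairs, which is 4 of 10 against 17.2% of all tested genes, and the ratios of Gpr143 in replicates 1 and 3 were only -0.02 and -0.04. After correction for GC content and length the genes lower in all 3 pairs were Mitf, Tyr and Dct, 3 of 10 against 27.8% of all tested genes. A log2 ratio below -1 was found for none of the 10 genes in replicate 1, where 1.17% of all genes had one, and for none in replicate 3, where 0.805% did. In replicate 2 it was found for 9 of the 10, against 21.0% of all genes, which shows how widely transcripts in general differed between these libraries. The ratio of Oca2 in replicate 2 was reached by only 0.0631% of tested genes, that of Pmel by 0.103% and that of Slc45a2 by 0.434%, whereas that of Mlana was reached by 6.91%.

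The replicate 2 contrast had a part on each side. Compared with the mean of the other shCtr libraries on the log2 scale, shCtr replicate 2 was above both of them for 8 of the 10 genes, from 1.29-fold for Dct to 15.7-fold for Oca2, while Tyrp1 was level with them (0.991-fold) and Mitf was at 0.102-fold of their level. These shCtr values depended on TMM scaling, in which shCtr replicate 2 had a factor of 0.690. As a share of all counts the 10 genes took 2.145% there, against 2.000% and 1.795% in shCtr replicates 1 and 3. Their summed CPM after scaling was 31092 against 18258 and 17227. shOSGEP replicate 2 was below both other shOSGEP libraries for all 10 genes, from 1.51-fold for Mlana to 8.61-fold for Pmel. Oca2, Trpm1, Gpr143 and Mlana differed more through the high shCtr library before any correction, and Tyr, Tyrp1, Dct, Pmel and Slc45a2 more through the low shOSGEP library. Mitf shared only the second of these, since it was 8.44-fold below the other shOSGEP libraries but equally low in the shCtr library of the same number.

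Because the replicate 2 libraries followed GC content and length, the ratios were also taken after removal of those trends. The transcripts of the 10 genes had GC contents from 35.2% (Tyr) to 53.8% (Pmel), with a median of 48.5% against 50.3% over tested genes, and their lengths had a median of 2852 bases against 2913. After the correction the replicate 2 ratio was below -1 for 10 of the 10 genes, against 16.4% of all genes, with a median of -3.52. The correction also moved the balance between the libraries. On the log2 scale Tyr was then 4.64 above the other shCtr libraries in shCtr replicate 2 and at -0.35 from the other shOSGEP libraries in shOSGEP replicate 2. Gpr143 (1.36 against -1.67) and Mlana (1.11 against -1.34) turned the opposite way, so the side through which these 3 genes differed more depended on the correction. Tyrp1, level before, was 1.08 above the other shCtr libraries in shCtr replicate 2, and the deficit of Mitf there shrank from -3.29 to -1.08. The largest shifts in the ratio were in Tyr, from -3.53 to -5.22, and in Mitf, from 0.06 to -1.41. The fitted trend for Mitf was -1.71 on the log2 scale in shCtr replicate 2 and -0.24 in shOSGEP replicate 2, so the equal Mitf values of these libraries became unequal once it was removed. The corrected medians of replicates 1 and 3 were 0.05 and -0.06. Osgep was also depleted most strongly in replicate 2, and neither its part nor that of the other differences between these libraries was tested.

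**Figure D3:**
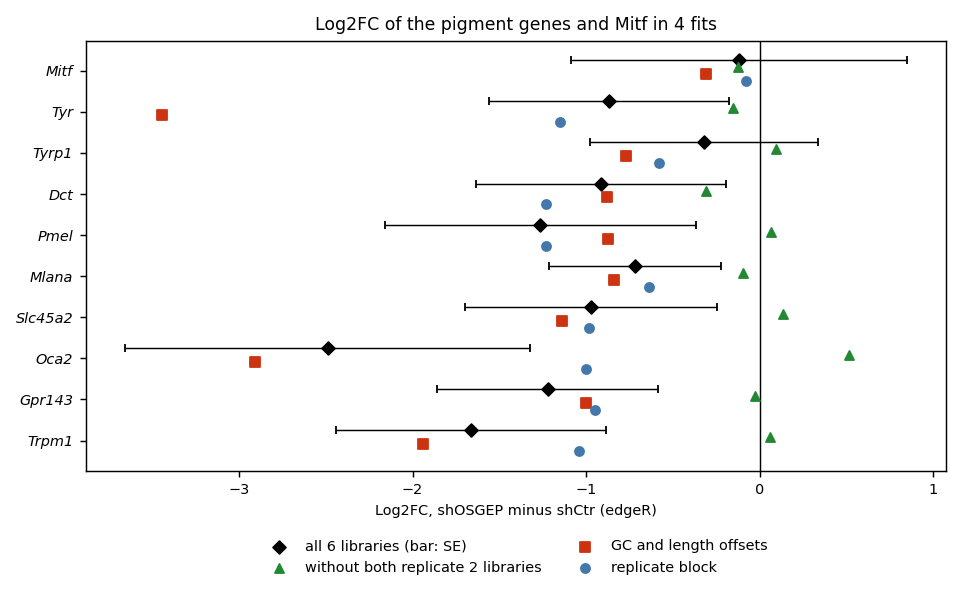
Log2FC of shOSGEP against shCtr is plotted for each gene from edgeR with all 6 libraries (bars are SE), without both replicate 2 libraries, with GC and length offsets, and with the replicate number as a block. Without replicate 2 the values lie between -0.31 and 0.52, on both sides of 0, while in the fits that keep replicate 2 every value is below 0.

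Levels were compared between genes only after division by transcript length. In shCtr replicate 1, Dct stood at 2633 CPM per kb, Tyrp1 at 2394, Pmel at 1640 and Mlana at 1077, followed by Slc45a2 at 256, Mitf at 69.4, Tyr at 44.7, Gpr143 at 23.5, Trpm1 at 12.1 and Oca2 at 0.556. Dct, Tyrp1 and Pmel exchanged the first 3 places between the libraries of replicates 1 and 3, so their order did not exceed the spread between libraries, whereas the other 7 genes kept their places in those 4 libraries. In shOSGEP replicate 2 Mlana came first with 640 CPM per kb, ahead of Tyrp1 with 563, Dct with 329 and Pmel with 228. In shCtr replicate 2 Pmel came first with 6244 CPM per kb, and Mitf came last with 6.01.

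The share of ANN codons, those read by tRNAs that carry t6A, was computed for the same transcripts. It ranged from 23.4% (Slc45a2) to 32.5% (Mitf), with a median of 25.5% against 27.0% over 11526 tested genes with a coding sequence. Mitf and Trpm1 (30.1%) were above that median and the remaining 8 were below it. These are sequence properties, and mRNA levels do not measure translation.

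The likeness of the 10 genes was described over the 6 libraries, which share the replicate 2 contrast and its GC and length trend. Pearson's r of log2 CPM with the mean of the other 9 genes was 0.996 for Slc45a2, 0.978 for Pmel, 0.967 for Tyr and 0.952 for Dct, and between 0.738 and 0.874 for Tyrp1, Mlana, Oca2, Gpr143 and Trpm1, against 0.091 for Mitf. After correction for GC content and length Mitf stood apart less, at 0.397, and the order of the others changed, with 0.997 for Gpr143, 0.993 for Mlana, 0.985 for Slc45a2, 0.965 for Tyrp1 and 0.732 for Tyr. Outside the set, Slc11a2 (r = 0.997), an iron transporter gene, and Sppl2b (0.995), Tspan10 (0.990), Bace2 (0.989) and Dctd (0.988) were most like the mean of the 10, among 10968 genes with a mean of at least 50 counts. Bace2, a protease gene known for processing PMEL, was measured at 232, 734 and 252 CPM in shCtr, against 208, 37.5 and 218 CPM in shOSGEP. It was thus high in shCtr replicate 2 and low in shOSGEP replicate 2, as Pmel was. Tspan10 ran the same course at 402, 1270 and 416 CPM in shCtr, against 373, 66.1 and 422 CPM in shOSGEP. Most like Mitf were Gen1, Ncapg2, Lmbrd2, Dync2h1 and Akap9, each with an r of 0.999 or 1.00. Akap9 was measured at 106, 5.36 and 62.6 CPM in shCtr, against 92.8, 5.81 and 59.3 CPM in shOSGEP. Transcripts of these 5 genes had lengths from 4684 to 14264 bases and GC contents from 37.8% to 44.8%, beside 4881 bases and 43.4% for Mitf.

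Companion lists of melanosome biology were described beside the 10 genes. Of 34 genes for melanosome biogenesis and transport, 22 had a Log2FC below 0 and 12 above, with a median of -0.18, and 1 passed the threshold of the study (0.426% of all genes did in that direction). That gene was Rab17, a small GTPase gene of vesicle traffic, measured at 3.57, 18.2 and 4.57 CPM in shCtr, against 1.35, 1.20 and 3.73 CPM in shOSGEP (Log2FC -2.06, SE 0.812, adjusted p = 1.00 in edgeR). Its groups overlapped through shOSGEP replicate 3 alone. The call was lost with the replicate number as a block (Log2FC -1.81) and without both replicate 2 libraries (Log2FC -0.67), among other settings. It was kept in 3 other fits with the block, which were the offsets for GC content and length (Log2FC -1.65) and, chosen after seeing the data, limma-voom with quality weights (-1.05, with 3.92% of all genes passing in that direction) and the omission of both replicate 2 libraries (-0.77, with 1.98%). None of the 10 pigment genes passed in these 3 fits. In replicate 2, 14 of the 34 had a log2 ratio below -1, against 21.0% of all genes, and after correction for GC content and length 9 of the 34 did, against 16.4%. Mfsd12, a melanosomal cysteine transporter gene, was measured at 32.5, 113 and 37.6 CPM in shCtr, against 26.1, 28.4 and 36.5 CPM in shOSGEP (Log2FC -1.01, SE 0.561). Bloc1s6, a subunit gene of the BLOC-1 complex that sorts melanosome cargo, lay the other way, at 28.8, 16.1 and 26.5 CPM in shCtr, against 31.1, 62.5 and 30.6 CPM in shOSGEP (Log2FC 0.80, SE 0.476). Every shOSGEP value of Bloc1s6 was above every shCtr value. It was the only 1 of the 34 genes whose groups did not overlap, against 6.36% of all tested genes in either direction. Its log2 ratio in replicate 2 was 1.95 as measured and 0.75 after correction for GC content and length.

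Of the regulators upstream of Mitf, 15 of 20 listed genes were tested, 10 with a Log2FC below 0 and 5 above, and none passed the threshold of the study in edgeR. Sox10, a factor that activates the Mitf promoter, was measured at 325, 999 and 554 CPM in shCtr, against 246, 171 and 555 CPM in shOSGEP (Log2FC -0.95, SE 0.612). Sox10 passed only without shOSGEP replicate 3, where 390 of 13105 genes passed in either direction. Without both replicate 2 libraries its Log2FC was -0.13. Mc1r, the receptor for melanocyte-stimulating hormone, was measured at 303, 670 and 354 CPM in shCtr, against 258, 47.0 and 313 CPM in shOSGEP (Log2FC -1.10, SE 0.695). Both followed the pigment genes, with the highest value in shCtr replicate 2 and the lowest in shOSGEP replicate 2. Fzd4, a Wnt receptor gene, was measured at 12.5, 3.54 and 9.91 CPM in shCtr, against 24.4, 14.4 and 11.4 CPM in shOSGEP (Log2FC 0.95, SE 0.590). It passed the threshold of the study with offsets for GC content and length (Log2FC 0.88), where 3.54% of all genes passed in the higher direction, and with these offsets and the replicate block (0.82), where 3.87% did. It also passed in the 2 blocked fits chosen after seeing the data, limma-voom with quality weights (0.78, 7.46% of all genes) and the omission of both replicate 2 libraries (0.60, 4.87%). In replicate 2 the median log2 ratio of the list was 0.38, with 3 of 15 genes below -1 against 21.0% of all genes. After correction for GC content and length it was also 3 of 15, against 16.4%. Kit and Lef1 were at 0 in every library, and Ednrb and Irf4 were too low to be tested.

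The relatives of Mitf differed from it in shCtr replicate 2. Tfeb, a regulator of lysosome genes, was measured at 9.05, 50.6 and 12.3 CPM in shCtr, against 6.84, 13.4 and 16.1 CPM in shOSGEP (Log2FC -0.98, SE 0.722). Tfe3, which shares that role, was measured at 48.8, 123 and 85.3 CPM in shCtr, against 54.6, 68.9 and 98.2 CPM in shOSGEP (Log2FC -0.21, SE 0.472). Both were highest in shCtr replicate 2, where Mitf was at 29.3 CPM, beside 30.6 CPM in shOSGEP replicate 2. The fitted GC and length trend in shCtr replicate 2 ran the same way on the log2 scale, at 1.00 for Tfeb, 0.65 for Tfe3 and -1.71 for Mitf. After its removal Mitf in shCtr replicate 2 still lay below the mean of the other shCtr libraries (-1.08 on the log2 scale), which Tfeb and Tfe3 did not. The replicate 2 log2 ratios of shOSGEP to shCtr were then -0.91 for Tfeb, -0.07 for Tfe3 and -1.41 for Mitf. Tfec was not above 0.0775 CPM in any library.

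Of 24 other genes reported as Mitf targets, 17 were tested, 8 with a Log2FC below 0 and 9 above, and none passed the threshold of the study in edgeR. In replicate 2, 7 of the 17 had a log2 ratio below -1, against 21.0% of all genes, and the list's median was -0.43. After correction for GC content and length 8 of the 17 did, against 16.4%. Tbx2, a repressor gene of the melanocyte lineage, was measured at 37.0, 130 and 39.7 CPM in shCtr, against 26.2, 22.8 and 46.2 CPM in shOSGEP (Log2FC -1.12, SE 0.606), and it passed with offsets for GC content and length, as 1.89% of all genes did in that direction. Itpkb, an inositol phosphate kinase gene, was measured at 67.6, 142 and 100 CPM in shCtr, against 54.9, 31.3 and 91.8 CPM in shOSGEP (Log2FC -0.80, SE 0.516). Tbx2 and Itpkb had the replicate 2 contrast of the pigment genes, and the third gene of this list with the smallest p was Mc1r, which the list of upstream regulators also holds. The lists share further genes, so their counts are not separate. Slc24a5 and Rab27a (log2 ratios of -2.20 and -1.18 in replicate 2) are also in the list for biogenesis and transport, and Ednrb and Irf4 in that of upstream regulators.

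**Figure D4:**
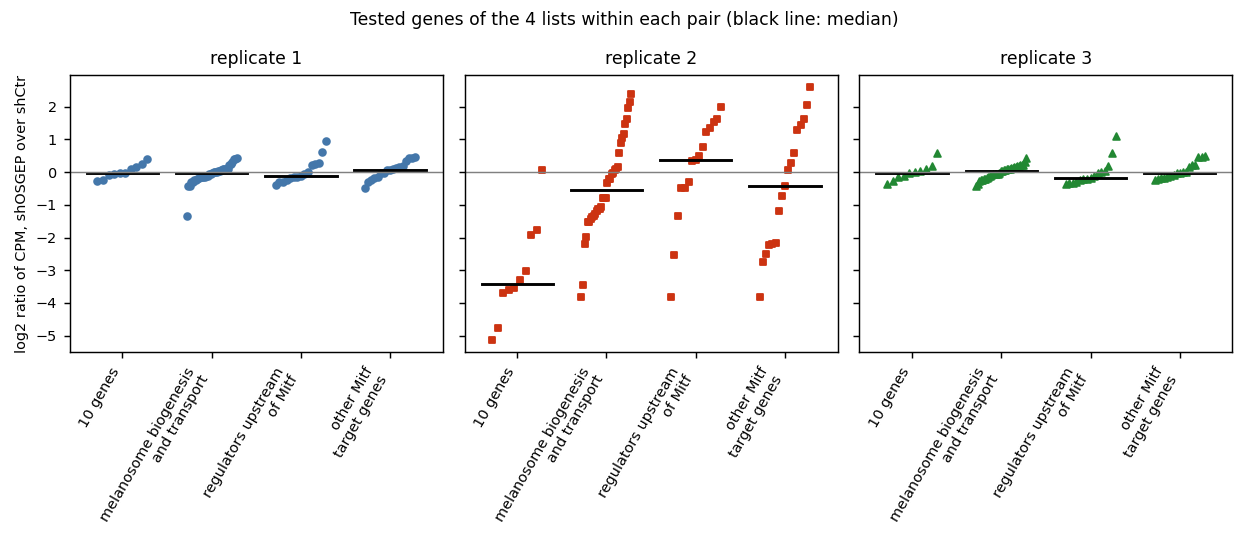
Points are log2 ratios of CPM of shOSGEP over shCtr for the tested genes of 4 lists in each same-numbered pair of libraries, and black lines are medians. In replicates 1 and 3 all 4 medians lie between -0.18 and 0.08, and in replicate 2 the median is -3.42 for the 10 pigment genes, -0.55 for biogenesis and transport, 0.38 for upstream regulators and -0.43 for other Mitf targets.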

How the data were processed

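PolyA RNA of 6 B16F10 libraries, 3 shCtr and 3 shOSGEP, (500 ng of total RNA each) was made into TruSeq libraries and read from both ends for 100 bases. The study's methods state high RNA integrity for all samples and do not state that the kit kept the strand. Reads were trimmed with TrimGalore, aligned to GRCm38 with STAR 2.6.1d and quantified with Salmon 1.4.0, per the study's methods and the submitters' processing notes. The deposited values are expected counts (estimated counts) made by the authors for each Ensembl gene and given without decimals, normalization or filter, and no further rounding was applied. The annotation release is not given in the sources used here. No column of values was left unused.

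Groups and replicate numbers came from the labels. Genes were kept by filterByExpr (minimum count 10, minimum total 15), scaled by TMM and tested with edgeR 4.0.16 in R 4.3.3 (quasi-likelihood test, two-sided, no block, Benjamini-Hochberg adjustment over 12669 genes), and the SE is the Log2FC divided by the square root of F. The p-values measure the spread between 3 infections per group. CPM values are after TMM scaling. Log2 ratios, and folds within pairs or against the other libraries of a group, were taken from log2 CPM with a prior count of 2. Where counts are low they are smaller than ratios of the printed CPM. A floor of 3 counts equalled 0.116 to 0.147 CPM per library and covers counting error only, since reads carried no molecular identifiers. Same-numbered libraries were checked for pairing by correlating, across genes, their deviations from the group means. The correlations were 0.811, 0.557 and 0.196 for replicates 1, 2 and 3, all over the limit of 0.1, so the number was taken to pair the libraries, although a correlation between different numbers reached 0.491 and the labels do not say what a number marks.

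Positions, overlaps, lengths, GC contents and codon shares came from GENCODE M21 (GRCm38), for 1 principal protein-coding transcript per gene, and 99.9% of tested genes had them. GC and length trends were natural splines (5 degrees of freedom each) fitted, library by library, to log2 CPM (prior count 2) after subtraction of the mean of each gene. The alternatives were DESeq2 1.42.0, limma 3.58.1 (voom with quality weights), other scalings and filters, GC and length offsets, a replicate block and leaving out libraries. Genes named beside the 10 were Osgep, the MiT/TFE family, the 3 with the smallest p in each companion list, and the 5 most correlated with the mean of the 10 and with Mitf. Genes named in the marker check, in overlaps or as undetected were added after their values were seen. The result of a further marker list is not reported here. The members and the companion lists were chosen with earlier results of these data known, and they are not independent evidence of a direction. The scripts were tested on simulated data.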

Additional observations from a re-analysis of the deposited data

How the results depend on the processing

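The 10 genes had 0 calls at an adjusted p under 0.05 in edgeR and under all 20 alternatives. Among all genes, DESeq2 called 14 of 12669 and limma-voom with quality weights called 3 of 12669. These weights with the replicate block called 1403 of 12669, and the omission of both replicate 2 libraries with the block called 613 of 12857. In edgeR and the remaining alternatives no gene passed, Osgep included, so a result of 0 for the 10 carries no information there. The limits are the 3 libraries per group, the single hairpin and the weight of replicate 2. Calls at the threshold of the study numbered 0 in edgeR, 1 in DESeq2, 2 with no filter on low counts, 2 with GC and length offsets, and 0 to 3 when libraries were left out. The 3 were Oca2, Gpr143 and Trpm1 without shCtr replicate 1, and no gene of the 10 passed without shCtr replicate 2, without any single shOSGEP library or without both replicate 2 libraries. The median Log2FC of the 10 was -0.99 with a replicate block. In edgeR with TMM scaling, filterByExpr and every library, but without offsets, none of the 10 passed with or without this block. With GC and length offsets the block took the calls from 2 to 0, with a median of -1.04. Leaving out libraries gave a median from -1.48 to 0.014, the highest without both replicate 2 libraries. Over the same omissions the Log2FC ranged from -0.81 to 0.46 for Mitf, from -0.87 to 0.11 for Tyrp1, from -2.00 to 0.065 for Pmel, from -1.60 to 0.13 for Slc45a2, from -3.24 to 0.52 for Oca2 and from -2.34 to 0.057 for Trpm1, and it stayed below 0 for Tyr, Dct, Mlana and Gpr143. List medians ranged from -0.69 to 0.14 for the MiT/TFE family, from -0.29 to 0.067 for upstream regulators and from -0.30 to 0.17 for other Mitf targets.

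In limma-voom with quality weights the median of the 10 was -0.19 and Oca2 was at 0.34. Chosen after seeing the data were these weights with the replicate block, which put the median of the 10 at -0.078, Tyrp1 at 0.097, Slc45a2 at 0.071 and Oca2 at 0.34, and the omission of both replicate 2 libraries with the replicate block. The latter put the median of the 10 at 0.0090, Tyrp1 at 0.066, Pmel at 0.068, Slc45a2 at 0.13, Oca2 at 0.52, Trpm1 at 0.046 and the MiT/TFE median at 0.023. The median of upstream regulators was 0.0075 with upper-quartile scaling and 0.0040 with the replicate block, and -0.22 with GC and length offsets. Their calls at the threshold of the study ranged from 0 to 2 over all alternatives. The median of other Mitf targets was -0.30 without a filter, -0.025 with the replicate block, -0.057 with GC and length offsets and -0.055 with both. The causes of these changes were not tested.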
